A study of Mus musculus and Homo sapiens
Mus musculus with 12 samples.

Results

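The abundant nuclear noncoding RNAs of the mouse brain were described across 7 snHH-seq libraries. The 7 members, Malat1, Neat1, Rn7sk, Rmrp, Rpph1, Snhg11 and Miat, were chosen by symbol, and all 7 were found in each of the 7 count tables, out of 34496 gene symbols in all. snHH-seq is a droplet method that reverse transcribes RNA inside fixed nuclei. The paper's text describes random primers, so RNAs without a poly-A tail are read as well, and the study's primer list also holds an oligo-dT primer. Each cDNA fragment is counted once by a unique fragment identifier (UFI). The study compared 2 kinds of reverse transcription primer, with a preindex, an extra cell barcode added before the droplet step (Index), and without it (No_index). It also compared 2 kinds of storage, nuclei from frozen or from fresh brain. There were 2 No_index_frozen, 2 Index_frozen, 2 No_index_fresh and 1 Index_fresh libraries. The methods give wild-type C57BL/6J male mice aged 6 to 8 weeks as the animals, and no group carried a transgene or received a drug. Groups were taken from the titles. The treatment field of the sample record names the opposite primer in 4 of the 7 libraries, while the barcodes were 40 nt long in the Index libraries and 30 nt long in the No_index libraries. Nothing says that the libraries of a group came from separate animals, so p-values measure the spread between libraries, which may be technical.

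The members do different work in the nucleus. Malat1 is a long noncoding RNA of nuclear speckles, the bodies that store splicing factors, and Neat1 is the scaffold of paraspeckles, bodies that hold RNA-binding proteins such as Sfpq and Nono. Rn7sk is the 7SK RNA, which holds the elongation kinase P-TEFb (Cdk9 with a cyclin T) inactive together with Larp7, Mepce and the Hexim proteins. Rmrp is the RNA of RNase MRP, which acts on the ribosomal RNA precursor, and Rpph1 is the RNA of RNase P, which matures the leader of tRNAs and also cuts the tail ends of Malat1 and Neat1. Snhg11 is a host gene of small nucleolar RNAs, and Miat (Gomafu) is a long noncoding RNA of neurons that stays in the nucleus. Rn7sk, Rmrp and Rpph1 are made by RNA polymerase III and carry no poly-A tail, whereas Snhg11 and Miat are spliced polymerase II transcripts.

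The sequences below are given because oligo-dT and random primers need different letters in the RNA, and because the small members have close relatives in the genome. They were read from the GRCm38 genome with GENCODE M21, 5′ to 3′ on the minus strand. Rn7sk is shown from base 1 to base 300 of 331 (chr9:78175334-78175633), Rmrp whole at 271 bases (chr4:43492788-43493058), and Rpph1 from base 1 to base 300 of 319 (chr14:50807468-50807767). Capitals mark runs of at least 3 A in Rn7sk and Rmrp and of at least 2 A in Rpph1. For Malat1 a window of 120 of its 6983 bases (chr19:5795940-5796059, bases 6614 to 6733) is shown, with runs of at least 5 A in capitals. The last lines give the preindexed primers that the study lists, with a shared handle of 27 bases, a barcode of 10 bases that is not printed, and an end of 20 T or of 7 random bases.
Rn7sk: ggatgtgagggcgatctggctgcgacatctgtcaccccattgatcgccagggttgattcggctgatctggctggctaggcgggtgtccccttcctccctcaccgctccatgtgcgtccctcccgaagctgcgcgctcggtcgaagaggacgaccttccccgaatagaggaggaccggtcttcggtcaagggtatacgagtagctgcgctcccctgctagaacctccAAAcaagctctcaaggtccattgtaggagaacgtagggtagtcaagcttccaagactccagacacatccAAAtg
Rmrp: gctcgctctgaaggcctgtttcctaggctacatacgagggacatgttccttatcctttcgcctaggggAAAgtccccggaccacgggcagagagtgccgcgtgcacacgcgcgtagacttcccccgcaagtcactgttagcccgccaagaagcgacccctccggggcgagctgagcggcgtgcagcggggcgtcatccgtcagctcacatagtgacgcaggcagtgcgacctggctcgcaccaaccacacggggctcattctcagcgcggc
Rpph1: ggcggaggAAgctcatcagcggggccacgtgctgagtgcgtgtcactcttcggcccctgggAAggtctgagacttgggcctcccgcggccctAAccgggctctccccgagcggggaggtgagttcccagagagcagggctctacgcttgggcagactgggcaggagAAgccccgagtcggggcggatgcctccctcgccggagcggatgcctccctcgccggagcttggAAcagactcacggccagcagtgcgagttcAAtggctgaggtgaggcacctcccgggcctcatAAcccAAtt
Malat1: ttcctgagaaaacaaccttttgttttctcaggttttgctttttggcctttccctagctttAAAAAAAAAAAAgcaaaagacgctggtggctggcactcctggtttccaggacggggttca
Handle of both primers: ggagttggagtgagtggatgagtgatg
End of the oligo-dT primer: TTTTTTTTTTTTTTTTTTTT
End of the random primer: NNNNNNN

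The 3 small RNAs hold no long stretch of A. The longest run was 3 bases in Rn7sk and in Rmrp and 2 in Rpph1, against 12 in Malat1, where it starts at base 6674, and 8 in Snhg11, 7 in Neat1 and 4 in Miat. For Snhg11 and Miat only the longest spliced transcript was searched, of 5864 and 9163 bases. Their introns may hold longer runs. Malat1 (ENSMUSG00000092341) is a single-exon gene of chromosome 19 at 5795690 to 5802672, and Neat1 (ENSMUSG00000092274) is its neighbour at 5824708 to 5845478, in 1 exon of 20771 bases. Miat (ENSMUSG00000097767) spans 16168 bases of chromosome 5 (112213228 to 112229395) with 7 exons in its longest transcript, and Snhg11 (ENSMUSG00000044349) spans 10508 bases of chromosome 2 (158375638 to 158386145) with 5. Counts cover whole genes, introns included. The annotation types Snhg11 as protein_coding, Rn7sk as misc_RNA and Rmrp and Rpph1 as ribozyme. A second entry named Rmrp (ENSMUSG00000115420, 281 bases) covers the same place, and the tables hold 1 row of that symbol.

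Some counts of the small members are shared with other genes by sequence or position. Of the 31-base words of Rn7sk, 72.8% also occur in at least 1 of 25 other annotated genes, and only uniquely mapped reads were kept by the authors. The 20 of these relatives that were in the tables held 1897 UFIs against 126558 for Rn7sk, 1.50%. Of the 319 bases of Rpph1, 284 lie inside Ccnb1ip1 on the same strand, which held 12 UFIs against 882 for Rpph1. How reads that lie in more than 1 gene were counted is not given in the sources used here. Reads of Rpph1 may thus be missing from its count, and its level may be a lower bound. Rmrp shares 159 of its 271 bases with Ccdc107 on the other strand (370 against 2881 UFIs), and Gm26953 lies opposite 86.2% of Miat (164 against 36172 UFIs). The strand setting of the counting is not given in the sources used here, so reads of Rmrp and Miat and of their opposite partners cannot be told apart with certainty.

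Depth set how finely each member could be read. The 7 libraries held 11198 nuclei and from 8605214 to 42439731 UFIs each, and the median UFIs per nucleus ranged from 9011.5 to 27543. The preindexed libraries had more nuclei (1998 to 3100, against 700 to 1300), so the number of nuclei moved with the primer, while the median UFIs per nucleus overlapped (9011.5 to 14016.5 against 10187 to 27543). At most 10 barcodes were shared by a pair of libraries. Clustering with the 7 members left out of the variable genes gave 25 clusters. By markers, 9911 nuclei were neuron-like and 615 glia-like (302 oligodendrocyte-like, 112 OPC-like, of oligodendrocyte precursors, and 201 astrocyte-like). A further 102 were endothelial and pericyte-like and 89 stayed unnamed. The remaining 481 nuclei, 268 in Index_frozen 1 and 213 in Index_frozen 2, were rich in kidney transcripts such as Slc34a1 and Pkhd1, and are called kidney-rich. These nuclei go against the label brain, and where they came from was not tested.

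Malat1 was the member with the highest UFI count in each of the 7 libraries. It took 5135 and 5048 UFIs per 1000000 (CPM) in No_index_frozen, 6672 and 6263 in Index_frozen, 4788 and 4963 in No_index_fresh and 5312 in Index_fresh, and ranked between 3 and 10 among all genes of a library. Snhg11 had 776 to 1253 CPM (ranks 108 to 186) and Rn7sk 430 to 1016 CPM (128 to 394), with Rn7sk the higher in the 4 No_index libraries and Snhg11 in the 3 Index libraries. Below them were Miat with 168 to 215 CPM (858 to 1093) and Neat1 with 13.1 to 136 CPM (1370 to 7228). The 2 catalytic RNAs had few UFIs, at 10.2 to 23.2 CPM for Rmrp and 4.07 to 5.48 CPM for Rpph1, the latter from 35 UFIs in the shallowest library. Together the 7 members held 0.676% to 0.835% of the UFIs of a library. Per kilobase of gene the order changed, because Rn7sk is short. Rn7sk reached 1300 to 3069 CPM per kb, above the 686 to 955 of Malat1 in each library, and Rmrp (37.7 to 85.6 CPM per kb) lay above Miat (10.4 to 13.3) and Neat1 (0.632 to 6.54). A per-kilobase value depends on the span counted, which for Miat and Snhg11 includes introns.

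**Figure D1:**
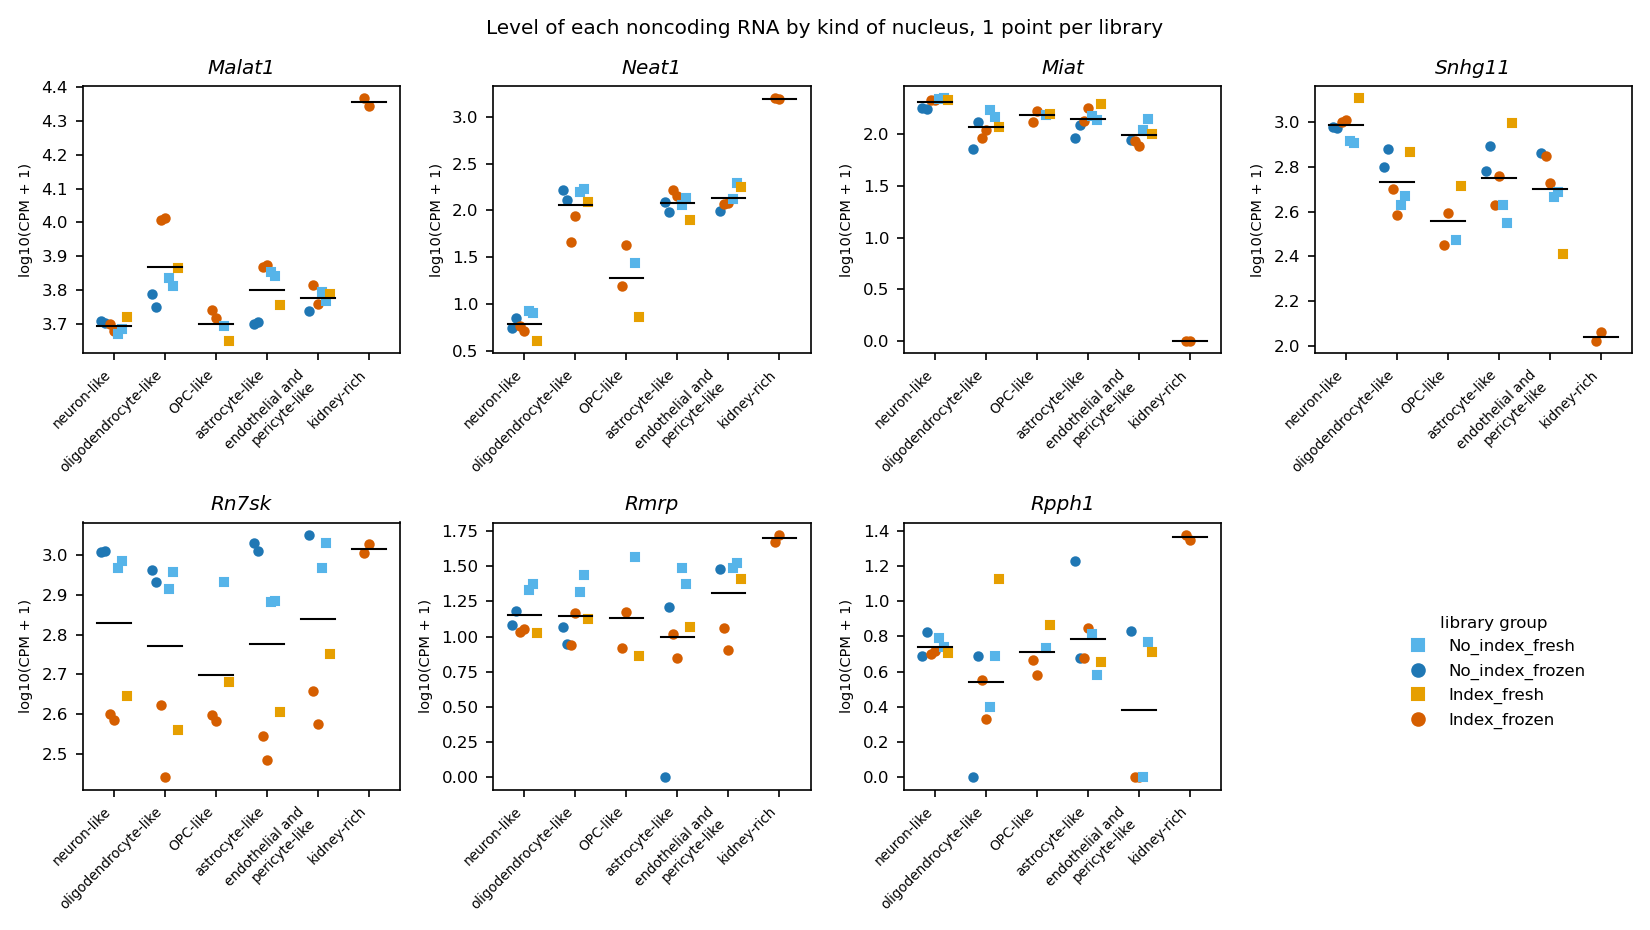
Level of each member in each kind of nucleus, as log10(CPM + 1) on the y axis, with 1 point per library that had at least 10 such nuclei, coloured by library group, and a line at the mean over libraries. Neat1 sits at 3.02 to 7.33 CPM in neuron-like nuclei and at 1537 and 1582 in kidney-rich nuclei, Miat is listed at 0 in kidney-rich nuclei, and the Index and No_index libraries separate in Rn7sk in neuron-like nuclei.

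Neat1 had the largest difference of the 7 members between glia-like and neuron-like nuclei. In neuron-like nuclei it had 4.55 and 6.17 CPM in No_index_frozen, 4.83 and 4.09 in Index_frozen, 7.33 and 7.11 in No_index_fresh and 3.02 in Index_fresh. In glia-like nuclei of the same libraries, in the same order, it had 122 and 96.2, 79.3 and 92.0, 120 and 133, and 88.6 CPM. Each of the 7 glia-like values lay above all 7 neuron-like values, and within a library the ratio was 20.8 ± 5.49 (SD, n = 7). In edgeR's quasi-likelihood test with the library as a block, the log2 fold change was 4.23 (standard error 0.11, adjusted p = 4.90e-13). Among the glia, oligodendrocyte-like nuclei were at 24.6 ± 10.5 times (SD, n = 7) and astrocyte-like nuclei at 24.3 ± 8.03 times (SD, n = 7) the neuron-like level of their library, while OPC-like nuclei were at 4.78 ± 3.75 times (SD, n = 4). Endothelial and pericyte-like nuclei, not a part of the test, were at 28.9 ± 15.5 times (SD, n = 6). Neat1 thus spanned 44.9 to 169 CPM in oligodendrocyte-like nuclei and 6.29 to 42.1 CPM in OPC-like nuclei, with no overlap, the latter from 32 UFIs in all. The fitted log2 fold change against neuron-like nuclei was 4.51 in oligodendrocyte-like nuclei (adjusted p = 4.82e-14), 4.52 in astrocyte-like nuclei (adjusted p = 9.76e-14) and 2.32 in OPC-like nuclei (adjusted p = 0.00104), all from edgeR. With 20 principal components in the clustering the OPC-like value was 1.36 (adjusted p = 0.164).

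The kidney-rich nuclei held far more Neat1 than any brain nuclei, at 1582 and 1537 CPM in the 2 Index_frozen libraries. That was 327 and 376 times the neuron-like level of the same library, and the edgeR log2 fold change was 8.03 (standard error 0.17, adjusted p = 1.80e-14) against neuron-like and 3.8 (standard error 0.16, adjusted p = 4.27e-12) against glia-like nuclei. The median kidney-rich nucleus had 11.9 Neat1 UFIs per 10000, and the median neuron-like and glia-like nucleus had 0. The neuron-like nuclei of these libraries were not high in Neat1, with 4.83 and 4.09 CPM inside the range of the other 5 libraries, and the 9 kidney markers summed to 9.50 to 19.6 CPM in neuron-like nuclei of each library against 11918 and 12009 CPM in the kidney-rich nuclei. At a finer resolution, 19 nuclei rich in liver transcripts separated in Index_fresh 1, with 2410 CPM of Neat1 from 244 UFIs, which is 1 library with no replicate. A cluster of 72 microglia-like nuclei also separated, with Neat1 at 4.77 ± 3.52 times the neuron-like level of their library (SD, n = 6). In the main clustering, the unnamed cluster was high in both microglia and liver markers.

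Malat1 had a UFI in at least 99.7% of the nuclei of each library and varied much less. Its neuron-like level was 5117 and 5038 CPM in No_index_frozen, 4990 and 4778 in Index_frozen, 4661 and 4840 in No_index_fresh and 5266 in Index_fresh, a mean of 4956 ± 209 (SD, n = 7). Glia-like nuclei had 5420 and 5138, 8421 and 8440, 6633 and 6419, and 6335 CPM, above the neuron-like nuclei of the same library in 7 of 7 libraries, at a ratio of 1.36 ± 0.291 (SD, n = 7). The 2 Index_frozen libraries stood highest. The edgeR log2 fold change was 0.34 (standard error 0.10, adjusted p = 0.0139), which fell to 0.27 (adjusted p = 0.0598) without Index_frozen 1 and to 0.25 (adjusted p = 0.0589) with upper-quartile scaling. The Index_frozen libraries also stood apart within 1 kind, with oligodendrocyte-like nuclei at 10173 and 10310 CPM there and at 5621 to 7323 CPM in the other 5 libraries. Kidney markers summed to 11.5 and 4.60 CPM in these oligodendrocyte-like nuclei, within the range of the other libraries. The 7 oligodendrocyte markers summed to 13472 and 15349 CPM there against 5936 to 10474 CPM elsewhere, and the 10 neuron markers to 3344 and 2650 CPM against 4013 to 5089 CPM. The part of these marker differences in the Malat1 level was not tested.

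In kidney-rich nuclei Malat1 reached 23324 and 22147 CPM, 4.67 and 4.64 times the neuron-like level. Of the 481 kidney-rich nuclei, 477 (99.2%) held more Malat1 per 10000 UFIs than the 95th percentile of the neuron-like nuclei, with a median of 219 against 46.1 in neuron-like and 61.9 in glia-like nuclei. In edgeR the log2 fold change was 1.58 (standard error 0.17, adjusted p = 4.39e-07) against neuron-like nuclei and 1.24 (adjusted p = 7.32e-06) against glia-like nuclei. The fitted values use TMM-scaled sums of all 7 libraries and the CPM ratios do not. The fit on the 2 Index_frozen libraries alone, chosen after seeing the data, gave 1.76 against neuron-like nuclei, and the median log2 fold change over all 13608 genes was 0.11 in that contrast over the 7 libraries.

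The small RNAs made by polymerase III were higher in the kidney-rich nuclei and close to level between neurons and glia. Rn7sk had 1008 and 1063 CPM in kidney-rich nuclei and 397 and 385 CPM in neuron-like nuclei of the same libraries, a ratio of 2.54 and 2.76. Rmrp had 46.2 and 51.8 CPM against 9.71 and 10.4, and Rpph1 had 22.8 and 21.2 CPM against 4.03 and 4.23. All 3 passed in edgeR against neuron-like nuclei, with log2 fold changes of 0.97 for Rn7sk (adjusted p = 1.53e-06), 1.84 for Rmrp (adjusted p = 7.01e-08) and 2.00 for Rpph1 (adjusted p = 5.87e-06). Between glia-like and neuron-like nuclei Rn7sk was lower in 7 of 7 libraries but by little, at a ratio of 0.900 ± 0.065 (SD, n = 7), and edgeR gave -0.23 on the log2 scale (standard error 0.07, adjusted p = 0.0168). In the 2 Index_frozen libraries alone, a choice made after seeing the data, it was -0.27 (adjusted p = 0.102). Rmrp and Rpph1 did not pass over the 7 libraries, with log2 fold changes of -0.05 (standard error 0.13) and -0.25 (standard error 0.25). They rested on 3 to 74 UFIs of Rmrp and 3 to 10 of Rpph1 per library in the glia-like nuclei.

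Snhg11 and Miat ran the other way and were highest in neurons. Snhg11 had 956 and 947 CPM in neuron-like nuclei of No_index_frozen, 1000 and 1020 in Index_frozen, 824 and 809 in No_index_fresh and 1281 in Index_fresh. The glia-like values in the same order were 599 and 708, 437 and 441, 448 and 396, and 776 CPM, lower in 7 of 7 libraries at a ratio of 0.555 ± 0.114 (SD, n = 7). Miat had 177 and 172, 215 and 213, 218 and 222, and 213 CPM in neuron-like nuclei and 75.7 and 132, 112 and 141, 155 and 143, and 147 CPM in glia-like nuclei, at a ratio of 0.632 ± 0.118 (SD, n = 7), lower in 7 of 7. No glia-like value of either gene reached the lowest neuron-like value. The edgeR log2 fold changes were -0.95 for Snhg11 (standard error 0.10, adjusted p = 8.40e-07) and -0.74 for Miat (standard error 0.09, adjusted p = 1.35e-05). The lowest glial level of Snhg11 was in OPC-like nuclei, at 0.358 ± 0.053 of the neuron-like level (SD, n = 4).

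The glia-like nuclei also held neuronal transcripts. The 10 neuron markers, such as Rbfox3 and Syt1, summed to 3124 to 4918 CPM in glia-like nuclei against 6616 to 7250 CPM in neuron-like nuclei, a mean ratio of 0.590, and no marker was at 0. The ratio of a single marker ran from 0.404 for Gad2 to 0.702 for Slc17a7, a range that includes the ratios of Snhg11 and Miat. The part of these transcripts in the Snhg11 and Miat levels of glia-like nuclei was not tested. In kidney-rich nuclei the same markers summed to 21.4 and 44.6 CPM, 0.00456 of the neuron-like sum. Miat had 0 UFIs in all 481 kidney-rich nuclei. By counting error alone, at a level of 95%, the share of nuclei with a UFI could be up to 1.12% in Index_frozen 1 and 1.41% in Index_frozen 2. Against a floor of 3 counts per library, Miat was at least 151-fold and 167-fold higher in neuron-like nuclei of the 2 libraries and at least 78.5-fold and 111-fold higher in glia-like nuclei. Snhg11 was still counted there, at 104 and 114 CPM, or 0.108 of the neuron-like level (edgeR log2 fold change -3.51, standard error 0.19, adjusted p = 1.12e-10).

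Counted over members, 5 of 7 passed between glia-like and neuron-like nuclei, where 42% of 13608 genes passed. All 7 passed between kidney-rich and neuron-like nuclei, where 68.7% of genes passed, and all 7 between kidney-rich and glia-like nuclei, where 62.4% passed. The members' counts are to be read against these shares of all genes. In the fit of single glial kinds, 4 of 6 members tested passed in oligodendrocyte-like nuclei (44% of genes), 3 of 6 in OPC-like nuclei (25.5%) and 4 of 6 in astrocyte-like nuclei (42.2%), with Rpph1 below the filter on low counts. Malat1 was at a log2 fold change of 0.57 in oligodendrocyte-like nuclei (adjusted p = 5.50e-04) and at -0.08 in OPC-like nuclei (standard error 0.15, adjusted p = 0.745), both from edgeR.

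Within neurons, Miat and Snhg11 varied most between clusters. Over the 13 neuron-like clusters found in all 7 libraries, the highest mean ratio to the neuron-like level of the library was 13.5 times the lowest for Miat and 8.75 times for Snhg11. For Neat1 it was 4.04 times and for Rpph1 3.54 times, both from few UFIs, and for Malat1 1.78, for Rn7sk 1.72 and for Rmrp 1.57 times. These are descriptions of clusters, with no test.

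**Figure D2:**
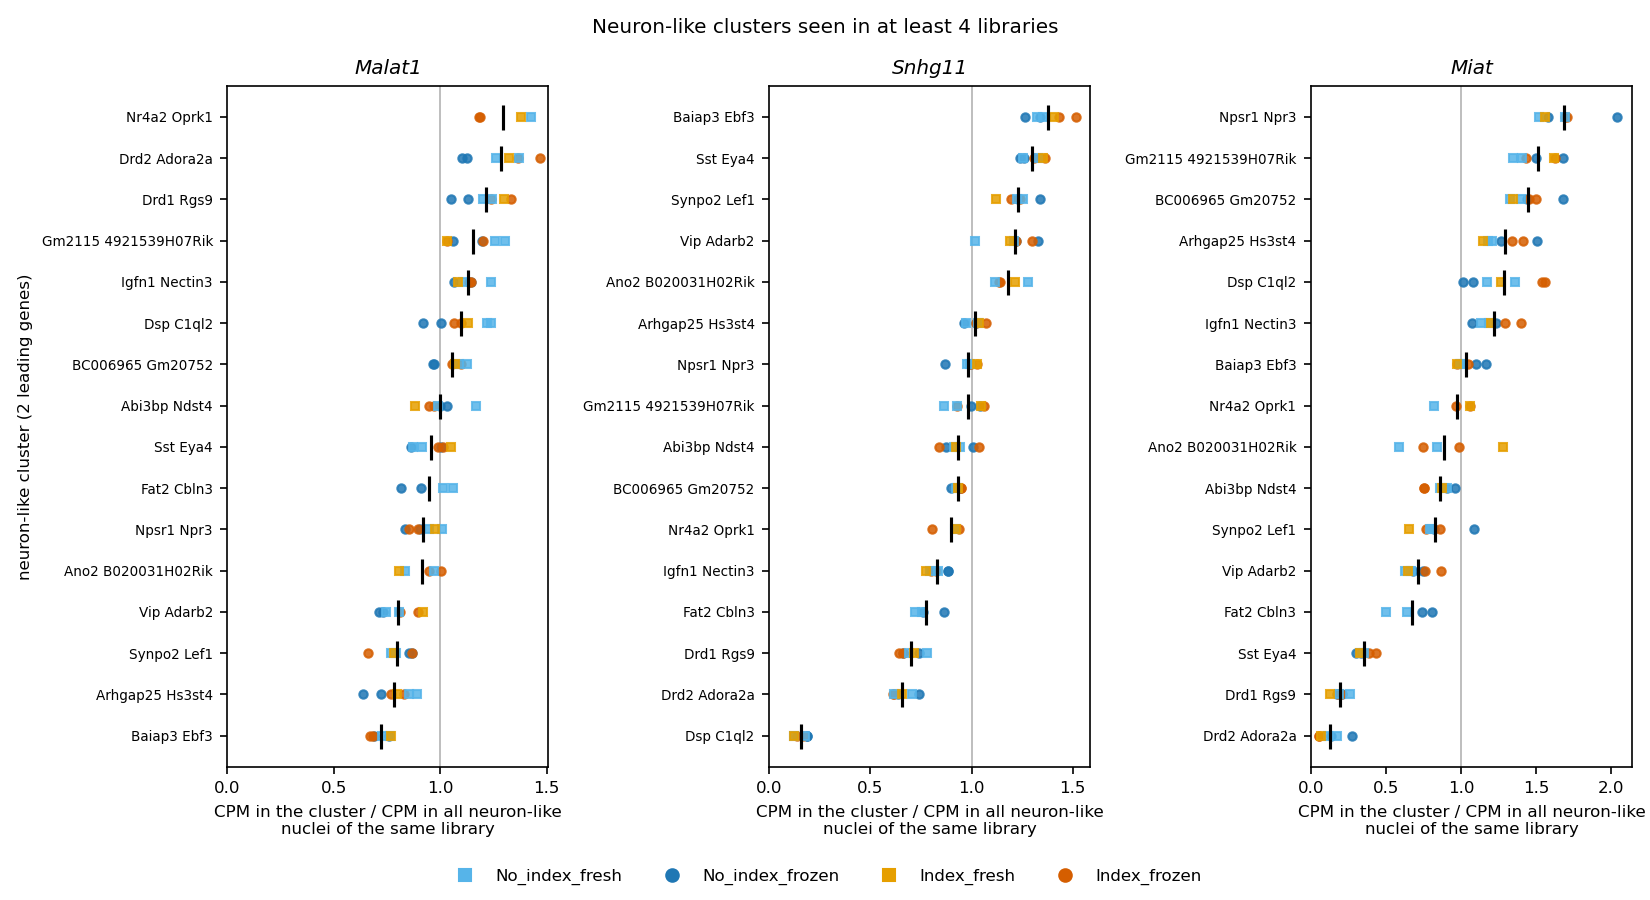
Malat1, Snhg11 and Miat in each neuron-like cluster with at least 10 nuclei in 4 or more libraries, as the ratio of CPM in the cluster to CPM in all neuron-like nuclei of the same library on the x axis, 1 point per library coloured by group, with a bar at the mean. Clusters are named by their 2 leading genes. The lowest Miat ratios are in the clusters led by Drd2 and Drd1, and the lowest Snhg11 ratios in the cluster led by Dsp and C1ql2.

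Miat was low in the clusters led by dopamine receptor genes and in the small cluster led by Car8, a gene of Purkinje cells, which had 14.0 ± 8.54 CPM (SD, n = 3). The cluster led by Drd2, Adora2a and Penk, genes of striatal neurons of the indirect pathway, had 24.8 ± 14.0 CPM (SD, n = 7), and the cluster led by Drd1 and Rgs9 had 39.0 ± 10.2 (SD, n = 7). In the Drd2 cluster the 7 libraries ran from 11.6 to 48.1 CPM, and in the Drd1 cluster from 27.1 to 58.1 CPM. The cluster led by Sst followed with 72.3 ± 14.0 CPM (SD, n = 7). The Drd2, Drd1 and Sst means lay below those of oligodendrocyte-like (119 CPM), astrocyte-like (143 CPM) and OPC-like (152 CPM) nuclei. At the top, the cluster led by Npsr1 and Npr3 had 342 ± 32.3 CPM (SD, n = 7), with 280 to 375 CPM over the libraries. No library of the Drd2, Drd1 and Sst clusters reached a value of the Npsr1 cluster. The Drd1 and Drd2 clusters overlapped in their ranges, and whether they differed within libraries was not tested. Both were also below the neuron-like level in Snhg11, at ratios of 0.70 and 0.655.

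Snhg11 had 1 cluster far below the rest. The cluster of 409 nuclei led by Dsp and C1ql2 had 179 and 179 CPM in No_index_frozen, 166 and 142 in Index_frozen, 99.4 and 145 in No_index_fresh and 155 in Index_fresh. Its mean of 152 ± 27.5 CPM (SD, n = 7) was 0.158 of the neuron-like level and lay near the kidney-rich nuclei (109 CPM) rather than the other neurons. Its highest library value, 179 CPM, was below the lowest glia-like value, 396 CPM. The highest level in clusters of all 7 libraries was 1350 ± 260 CPM (SD, n = 7) in the cluster led by Baiap3 and Ebf3, at a ratio of 1.38. Miat did not follow Snhg11 there, since the cluster led by Dsp was above the neuron-like level in Miat.

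Malat1 was lowest in the cluster led by Baiap3 and Ebf3, the largest at 1687 nuclei, with 3584 ± 291 CPM (SD, n = 7) and a ratio of 0.723, and the same cluster was the highest neuron-like cluster in Rn7sk, at a ratio of 1.38. Among the clusters of all 7 libraries its highest neuron-like level was in the Drd2 cluster, at a ratio of 1.29. The cluster led by Car8 had 15897 and 13017 CPM in the 2 No_index_frozen libraries and 949 CPM in Index_frozen 1, from 24, 22 and 12 nuclei. The 3 libraries did not share a level, and the rest had under 10 such nuclei each.

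**Figure D3:**
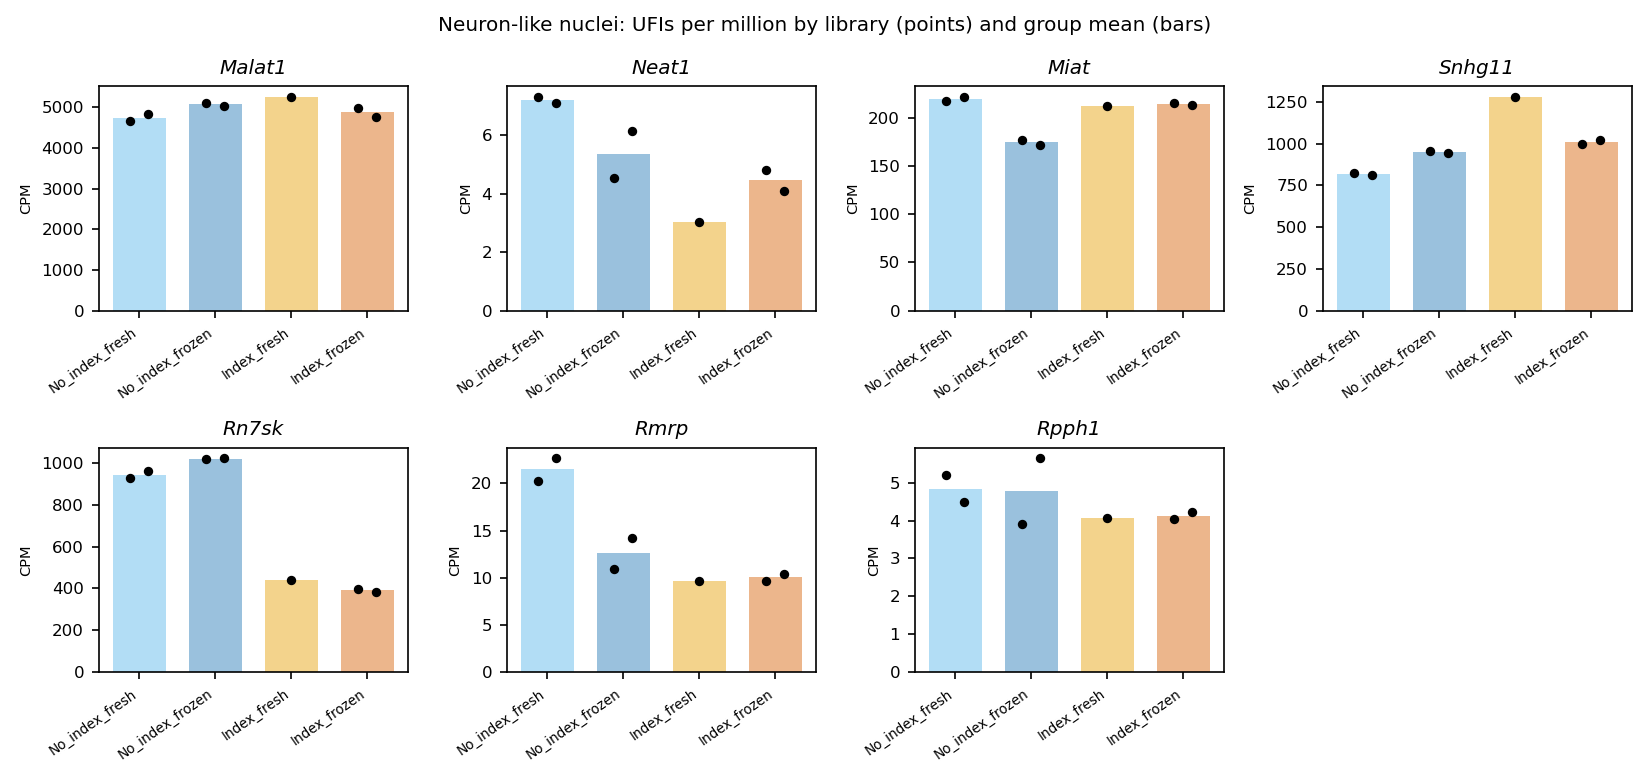
CPM of each member over all neuron-like nuclei of a library, on the y axis from 0, for the 4 library groups. Points are libraries and bars are group means. The 3 Index libraries sit at 385 to 440 CPM in Rn7sk and the 4 No_index libraries at 926 to 1022, and Snhg11 is highest in the Index_fresh library at 1281.

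The comparison of primers asks whether the preindexed primer reads the same RNAs as the plain one, and Rn7sk was the member with the largest fitted difference in neuron-like nuclei. In neuron-like nuclei it had 1017 and 1022 CPM in No_index_frozen and 926 and 962 in No_index_fresh, against 397 and 385 in Index_frozen and 440 in Index_fresh. The 3 preindexed libraries lay below all 4 others with no overlap. Snhg11 (1000 to 1281 against 809 to 956 CPM) and Rmrp (9.66 to 10.4 against 11 to 22.7 CPM) did not overlap between the primers either. The share of all genes without overlap was not counted, and 20.9% of genes passed for the primer in these nuclei. On the log2 scale edgeR put the Rn7sk difference at -1.12 (standard error 0.06, adjusted p = 6.54e-06). After each nucleus was thinned to 3000 UFIs, 89.8% to 93.0% of neuron-like nuclei had an Rn7sk UFI in the No_index libraries and 58.3% to 59.9% in the Index libraries, with no overlap at this matched depth (the means of the 2 arms were 59.2% and 91.1%, and 90.0% and 99.7% before thinning). Over all nuclei, kidney-rich ones included, the log2 fold change was -1.08 (standard error 0.06, adjusted p = 2.08e-04), and in glia-like nuclei it was -1.22 (standard error 0.15, adjusted p = 0.00279). The effect in glia minus that in neurons was -0.09 (standard error 0.14, adjusted p = 0.888), and none of the 7 members passed in this comparison, where 0.86% of genes passed. In the same comparison for storage, 0% of genes and no member passed, with 555 genes at an unadjusted p under 0.05.

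**Figure D4:**
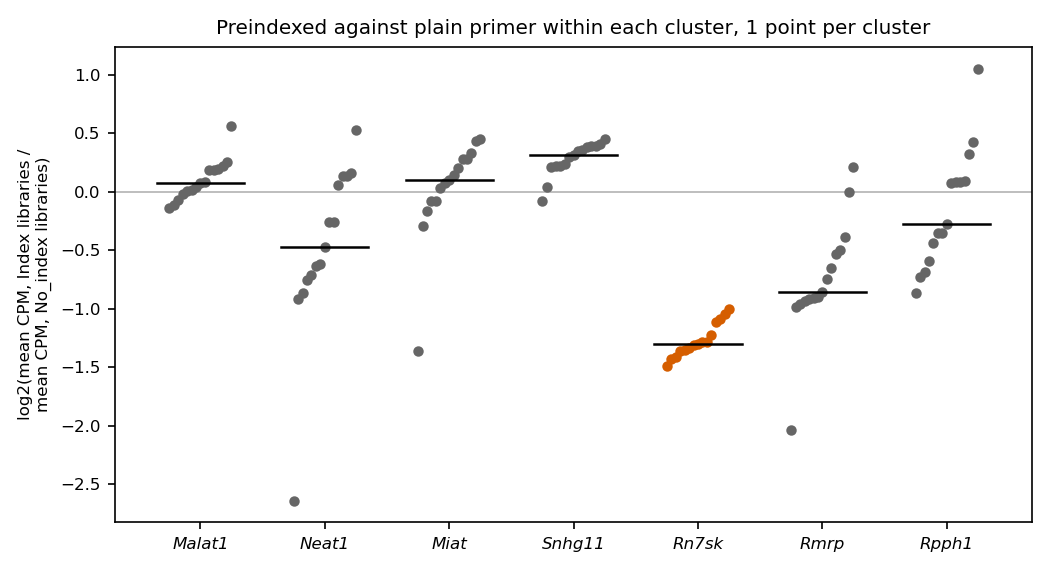
For each member, 1 point per cluster found in all 7 libraries (15 clusters), showing log2 of the mean CPM in Index libraries over the mean CPM in No_index libraries within that cluster, with a bar at the median and a pseudocount of 0.5 CPM. Rn7sk, in orange, runs from -1.49 to -1.0, and each of the other 6 members has clusters on both sides of 0.

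The fall of Rn7sk held within single clusters. In 15 of the 15 clusters found in all 7 libraries, the 3 Index libraries were all below the 4 No_index libraries, with a median log2 ratio of -1.30 and a range from -1.49 to -1.0. Snhg11 was higher with the preindexed primer in 14 of 15 clusters but without overlap in only 5, Rmrp lower in 13 (without overlap in 5) and Neat1 lower in 10 (without overlap in 5). Malat1 was higher in 11 (without overlap in 3), Miat higher in 10 (without overlap in 0) and Rpph1 lower in 8 (without overlap in 1). In 1 cluster Miat was lower without overlap, and its median log2 ratio was 0.10. These clusters come from the same 7 libraries and do not replicate each other. The share of all genes without overlap within clusters was not counted.

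Over neuron-like nuclei, 5 of 7 members passed for the primer in edgeR, where 20.9% of 18242 genes passed. Beside Rn7sk these were Snhg11 (log2 fold change 0.47, standard error 0.10, adjusted p = 0.00735), Miat (0.31, standard error 0.06, adjusted p = 0.00775), Malat1 (0.18, standard error 0.05, adjusted p = 0.0389) and Rmrp (-0.57, standard error 0.15, adjusted p = 0.0236). Neat1 was at -0.57 (standard error 0.19, adjusted p = 0.0599) and Rpph1 at -0.09 (standard error 0.14, adjusted p = 0.686). The CPM of Malat1 and of Miat overlapped between the primers. Fitted values use TMM-scaled sums and the CPM do not, so the rises fitted for Malat1 and Miat are not plain in the CPM. The calls of Malat1 and Rmrp depended on which libraries were kept. Without Index_fresh 1 they were 0.07 (adjusted p = 0.255) and -0.23 (adjusted p = 0.195), and both were also lost without No_index_frozen 2, No_index_fresh 1 or No_index_fresh 2, with Malat1 lost without Index_frozen 1 as well. Rmrp was high only in No_index_fresh, at 20.3 and 22.7 CPM against 9.66 to 14.3 CPM in the other 5 libraries. In the 4 frozen libraries alone, a choice made after seeing the data, Rn7sk (-1.26), Miat (0.42) and Snhg11 (0.21) still passed. Of all genes tested there, 24.1% passed. The makeup of the neuron-like nuclei also differed by primer. The clusters led by Fat2 or Car8 held 339 nuclei, of which 28 were in preindexed libraries. In a fit without these 2 clusters, added after seeing the data, 17.6% of 17856 genes passed for the primer, and the members' values from it are not reported here.

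Over all nuclei 3 of 7 members passed for the primer, Malat1, Miat and Rn7sk, where 15.8% of 19299 genes passed. Neat1 had 136 and 123 CPM in Index_frozen and 13.1 to 18.3 CPM in the other 5 libraries, which edgeR fitted as 2.10 on the log2 scale for the primer (standard error 0.67, adjusted p = 0.0723). With the 570 nuclei of the kidney-rich cluster and of the unnamed cluster that holds the liver-rich nuclei left out together, the direction turned, to -0.63 (standard error 0.16, adjusted p = 0.0237). Malat1 went from 0.34 (adjusted p = 0.0108) to 0.19 (adjusted p = 0.0177), and Snhg11 (0.46, adjusted p = 0.0158) and Rmrp (-0.56, adjusted p = 0.0335) passed, so that 6 of 7 members then passed. In that fit 19.3% of 18686 genes passed. With all nuclei kept, Malat1 did not pass without Index_frozen 1 (0.30, adjusted p = 0.0629) or without Index_frozen 2 (0.35, adjusted p = 0.0620). Miat, at 0.18 (adjusted p = 0.0284), failed to pass when any 1 of the 6 libraries other than Index_fresh 1 was left out. Its CPM over all nuclei overlapped between the primers. In glia-like nuclei only Rn7sk passed, 1 of 7 members against 2.34% of 11044 genes, with Malat1 at 0.47 (standard error 0.16, adjusted p = 0.174).

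No member passed for storage in edgeR, over all nuclei (0.207% of genes passed), over neuron-like nuclei (0.477%) or over glia-like nuclei (0% of genes passed, with 451 genes at an unadjusted p under 0.05 and 27 genes called by DESeq2). Before adjustment, Malat1 and Miat were under 0.05 in edgeR over all nuclei, Miat and Rmrp over neuron-like nuclei, and Rmrp over glia-like nuclei. DESeq2 called Miat over all nuclei and no member in neuron-like or glia-like nuclei. Within the No_index libraries, the neuron-like values of the 2 storage groups did not overlap for Miat, Rmrp and Snhg11. Malat1, Neat1 and Rn7sk did not overlap there either. Groups of 2 libraries can separate easily by chance, and the share of all genes without overlap was not counted. Neuron-like Miat was 177 and 172 CPM in frozen and 218 and 222 CPM in fresh, Rmrp 11 and 14.3 against 20.3 and 22.7, and Snhg11 956 and 947 against 824 and 809. In these 4 libraries alone, chosen after seeing the data, the edgeR log2 fold changes of frozen against fresh were -0.29 for Miat (adjusted p = 0.0124), -0.70 for Rmrp (adjusted p = 0.00615) and 0.26 for Snhg11 (adjusted p = 0.0148). Malat1, Neat1, Rn7sk and Rpph1 did not pass in that fit. Of all genes tested there, 3.89% passed.

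The preindexed libraries did not follow that pattern. In Index_frozen and Index_fresh, neuron-like Miat was 215, 213 and 213 CPM, and Snhg11 was 1000 and 1020 CPM in frozen but 1281 CPM in fresh. The interaction of storage and primer, fitted in edgeR as a model added after seeing the data, passed for 6 of 7 members in neuron-like nuclei (6.74% of genes passed), for 4 of 7 over all nuclei (16.4%) and for 1 of 7 in glia-like nuclei (0.724%). For Snhg11 it was -0.59 in neuron-like nuclei (standard error 0.07, adjusted p = 9.20e-05) and for Rmrp 0.77 (standard error 0.16, adjusted p = 0.011). Since the preindexed fresh group has 1 library, each interaction rests on it, and the library and the condition cannot be told apart.

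The partners of these RNAs were read from lists of their proteins. With the preindexed primer, 7.88% of all genes were higher and 7.88% lower over all nuclei, and 11.2% higher and 9.75% lower in neuron-like nuclei. Of the 7 genes of the 7SK particle and P-TEFb, 2 fell with the preindexed primer over all nuclei, the capping enzyme Mepce (log2 fold change -0.76, adjusted p = 0.0210) and the kinase Cdk9 (-0.42, adjusted p = 0.0304), and none rose. The median of the 7 was -0.23 against -0.02 over all genes. Of 11 paraspeckle proteins found, 4 rose over all nuclei and 7 in neuron-like nuclei, and none fell. They were led by Sfpq, a core partner of Neat1 (0.56 in neuron-like nuclei, edgeR adjusted p = 8.39e-05). Their medians were 0.15 and 0.19, against -0.02 and -0.04 over all genes. In glia-like nuclei none of the 11 passed for the primer, at a median of 0.12, where 2.34% of all genes passed. Of 10 nuclear speckle proteins 1 rose (Srsf6) and 1 fell (Srrm2) over all nuclei, and of 11 RNase P and MRP proteins none passed. None of the 4 lists had a member that passed for storage over all, neuron-like or glia-like nuclei, where 0.207%, 0.477% and 0% of all genes passed.

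Between kinds of nucleus the lists were on both sides. Against neuron-like nuclei, 21.5% of genes were higher and 20.6% lower in glia-like nuclei, and 37.4% higher and 31.3% lower in kidney-rich nuclei. Against neuron-like nuclei, 5 of 10 nuclear speckle proteins rose in kidney-rich nuclei, with Srsf2 at 1.50 (adjusted p = 2.22e-07), and 3 of 10 in glia-like nuclei, with Son at 0.44 (adjusted p = 1.97e-04). None of them fell in either. Of 11 paraspeckle proteins, 3 rose and 2 fell in kidney-rich nuclei, and 1 rose and 1 fell in glia-like nuclei, the first being Dazap1 at 0.40 (adjusted p = 0.00453). Other long noncoding RNAs were on both sides. Of 14 tested, 8 fell and 3 rose in kidney-rich nuclei, and 4 rose and 5 fell in glia-like nuclei, where Sox2ot, a transcript of the Sox2 locus, was at 1.45 (adjusted p = 5.94e-08) and Snhg14, the host transcript of the Prader-Willi snoRNAs, at -0.90 (adjusted p = 3.02e-07). Other small structured RNAs did not share the fall of Rn7sk with the preindexed primer over all nuclei, where 2 of 10 tested rose, Rnu3a (1.34, adjusted p = 0.0176) and Rnu12 (0.54, adjusted p = 0.0367), and none fell. Rnu3a is the U3 RNA of ribosome assembly, and Rnu11 and Rnu12 belong to the minor spliceosome. In neuron-like nuclei the same 2 rose and Rnu11 fell (-0.63, adjusted p = 0.0400). Rnu3a was also higher in kidney-rich than in neuron-like nuclei (3.20, adjusted p = 4.71e-08), 1 of 2 that rose among 6 tested. Of 18 other long noncoding RNAs, 4 rose with the preindexed primer over all nuclei and none fell. All these p-values are from edgeR, adjusted over all genes tested.

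The genes most like each member were found over 24 clusters, by Pearson's r of log2(CPM + 1) among 8046 genes with at least 10 CPM. Clusters share libraries, so r is given as a description. Snhg11 was most like Meg3 (r = 0.908), Gm9866 (0.894) and Rian (0.894), of which Meg3 and Rian are long noncoding RNAs of the imprinted Dlk1-Dio3 locus, and without the kidney-rich cluster (23 clusters) Rian, Meg3 and Mirg of the same locus had the 3 highest values (0.896, 0.893 and 0.841). Miat was most like Lrfn2, a synaptic adhesion gene, at 0.952 with and 0.891 without the kidney-rich cluster, and Neat1 was most like Cpt1a, the gate of fatty acid uptake into mitochondria, at 0.939 and 0.905. The likeness of Malat1 rested on the kidney-rich cluster. Its closest genes were Acsm2, Atp6v0a4 and Pkhd1 (0.842 to 0.848) with that cluster and Ppp1r9b (0.743) without it. For Rn7sk the closest with that cluster was Dis3l (0.807). For Rmrp the closest were Malt1 (0.881) with and Thap12 (0.821) without it, and for Rpph1 Psmd11 (0.898) and Astn2 (0.826). Among the members themselves, Malat1 ran against Miat (r = -0.848) and with Neat1 (r = 0.644) over the 24 clusters, and without the kidney-rich cluster the values were -0.588 and 0.322.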

How the data were processed

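Nuclei of mouse brain were profiled by snHH-seq. The authors deposited raw counts, the number of UFIs per gene and nucleus, which they made from uniquely mapped reads over whole genes. The paper describes a filter on genes seen in under 0.25% of cells. The deposited counts still hold such genes, for example Ccnb1ip1 with 3 UFIs among the 3100 nuclei of Index_fresh 1. The submitters' processing notes list GRCm38, STAR, cutadapt, UMI-tools, featureCounts and Scanpy, and the versions, the annotation release and the strand setting are not given in the sources used here. Of the symbols, 94.0% were found in GENCODE M21, which was used for positions.

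Nuclei were clustered with scanpy 1.11.5 and leidenalg 0.10.2 (counts scaled to 10000, 2000 variable genes without the members, 40 principal components, 10 neighbours, resolution 0.4) and named from marker lists. No doublet caller was run. The library was the replicate. Counts were summed per library, or per library and kind with at least 10 nuclei, and tested in edgeR 4.0.16 (quasi-likelihood, TMM, filterByExpr, Benjamini-Hochberg, threshold 0.05) under R 4.3.3, with storage and primer as terms, or with the library as a block between kinds. CPM is UFIs per 1000000 UFIs of the same nuclei. A standard error given with an edgeR value is the absolute log2 fold change divided by the square root of its F statistic. All but 3 nuclei reached 3000 UFIs for thinning. Intervals and floors cover counting error only. The replicate numbers of the titles did not pair the libraries (correlations of deviations -0.0429, -0.0127 and 0.0421). Alternatives were DESeq2 1.42.0, upper-quartile scaling, a replicate block, testing without a filter on low counts, other clusterings, thinning, and each library left out. The restriction to frozen, No_index or Index_frozen libraries, the neurons without the clusters led by Fat2 and Car8, the interaction and the kind-by-factor models were added after seeing the data. The members and lists were chosen with earlier results of these data known. Named genes were the members, the 3 genes most like each, and at most 3 per list and comparison with the smallest p, and clusters were named by their leading genes after their values were seen. Some results of the named lists and of the most-like genes are not reported here.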

Additional observations from a re-analysis of the deposited data

Results flagged for a closer look

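Of 42 sets of 4 libraries in which a member was checked for a library far from the rest, 2 stood out, and chance alone gives about 1 in 20. Both were Rpph1 in No_index_frozen 1, the shallowest library. Over all nuclei it had 4.07 CPM, from 35 UFIs, where the nearest of the other frozen libraries had 5.38. In glia-like nuclei it had 5.28 CPM, from 3 UFIs, where the nearest had 3.17.

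The effect of storage differed between the primers, by the interaction term in edgeR, for several members. Over all nuclei the interaction was 3.42 for Neat1 (adjusted p = 1.98e-09), 1.04 for Rmrp (adjusted p = 4.30e-04), -0.22 for Rn7sk (adjusted p = 0.0378) and -0.80 for Snhg11 (adjusted p = 1.56e-06), on the log2 scale. The kidney-rich nuclei were found only in the 2 Index_frozen libraries, where they held 3323 and 3617 UFIs of Neat1. The glia-like nuclei of these libraries held 126 and 158 UFIs of it, and the Neat1 interaction in glia-like nuclei was 0.17. The part of the kidney-rich nuclei in the Neat1 value over all nuclei was not tested. In neuron-like nuclei the interaction was 0.91 for Neat1 (adjusted p = 0.0464), 0.77 for Rmrp (adjusted p = 0.011), -0.31 for Rn7sk (adjusted p = 0.00989), -0.59 for Snhg11 (adjusted p = 9.20e-05), 0.32 for Miat (adjusted p = 0.0159) and -0.24 for Malat1 (adjusted p = 0.0466). In glia-like nuclei it passed for Snhg11 alone among the members, at -1.48 (adjusted p = 0.0107). Each value rests on the single Index_fresh library, so what is particular to that library and what comes with the condition cannot be told apart.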

How the results depend on the processing

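Of 1124 repeats of the members' tests, 1051 stayed on the same side of the threshold, 37 lost a call, 33 gained one and 3 reversed, passing with the opposite sign. Some estimates that passed in neither fit changed sign and are among the 1051. For storage over all nuclei, Neat1 was 1.02 in the main fit and -0.30 in the 4 No_index libraries alone. Neat1 reversed for the primer over all nuclei without the kidney-rich cluster and the unnamed cluster, which holds microglia-like and liver-rich nuclei (-0.63). Snhg11 reversed for storage over all nuclei without Index_fresh 1 (0.29) and in the 4 No_index libraries alone (0.29), with a range from -0.16 to 0.29 over the left-out libraries. Members called for the primer over all nuclei were 3, but 4 with DESeq2 (Neat1 gained, 2.27, adjusted p = 0.0149) and 5 with no filter on low counts. They were 6 without the kidney-rich and unnamed clusters, and 1 to 4 with a library left out (1 without Index_frozen 1 or 2). For storage over all nuclei they were 0, but 1 with DESeq2, 3 with no filter, 3 in the 4 No_index libraries alone and 0 to 4 with a library left out (4 without Index_fresh 1). In neuron-like nuclei they were 5 for the primer, but 6 with no filter (Neat1 gained, -0.55, adjusted p = 0.00300), 3 in the 4 frozen libraries alone and 3 to 6 with a library left out, and 0 for storage, but 2 with no filter, 3 in the 4 No_index libraries alone and 0 to 4 with a library left out (4 without Index_fresh 1). In glia-like nuclei they were 1 for the primer, and 1 to 2 with a library left out, and 0 to 0 for storage. With no filter the primer gave 2 (2.42% of genes passed), and in the 4 frozen libraries alone also 2 (7.8%). With a library left out, 4 to 5 members passed between glia and neurons, 7 to 7 in both kidney-rich contrasts and 9 to 11 of 18 in the kinds of glia. Over all nuclei, 17.2% of genes passed for the primer with DESeq2 and 13.9% with no filter. For storage it was 1.75% with DESeq2, 5.62% with no filter, 3.82% in the No_index libraries and 4.63% without Index_fresh 1. In neuron-like nuclei, 13.7% passed for the primer with no filter and 24.1% in the frozen libraries. For storage there it was 2.3% with no filter, 3.89% in the No_index libraries and 5.56% without Index_fresh 1. The causes were not tested.

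With a replicate block, 2 members were called for the primer over all nuclei (Miat lost, 0.18, adjusted p = 0.0658), 4 in neuron-like nuclei (Malat1 lost, 0.16, adjusted p = 0.0729), 1 in glia-like nuclei and 0 for storage in each. Over all genes the block gave 1731, 2964 and 74 calls for the primer in all, neuron-like and glia-like nuclei, against 3041, 3814 and 258 without it. Calls over all genes ranged from 1009 to 5668, from 2434 to 4644 and from 39 to 747 across the alternatives, and for storage from 0 to 1937, from 1 to 942 and from 0 to 48, and kidney-rich against glia-like from 5507 to 8989. Rn7sk passed for the primer in every alternative run, from -1.18 to -1.05 over all nuclei. Without the library block, Rn7sk no longer passed in edgeR between kidney-rich and neuron-like nuclei (0.15, adjusted p = 0.747). That fit set kidney-rich nuclei of the 2 Index_frozen libraries against neuron-like nuclei of all 7 libraries, whose Rn7sk level differed by primer. Within the 2 Index_frozen libraries the ratios to neuron-like nuclei were 2.54 and 2.76. The median log2 fold change of all genes tested between glia-like and neuron-like nuclei was -0.02, -0.12 with upper-quartile scaling and 0.62 with DESeq2, and the direction of each member called there held under both. Depth is lowest for Rpph1 and Rmrp, with 3 UFIs in the shallowest glia-like sum.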
